A study of Mus musculus with 4 samples.

Results

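Integrins are the adhesion receptors with which leukocytes leave the blood, hold on to other cells and grip the extracellular matrix. The genes described here are 8 integrin chains and 2 of their ligands, taken as the rows of the count tables named Itga1, Itga4, Itga6, Itgal, Itgae, Itgb1, Itgb2, Itgb7, Vcam1 and Icam1, which is 10 of the 31253 genes measured. The mouse glioma line CT2a was implanted into 4 WT and 4 CaMKK2 KO animals, and on day 14 live CD45+ leukocytes were sorted from the hemisphere that held the tumor. The KO mice (CaMKK2-/-) lacked the kinase in the whole animal, both genotypes were on the C57Bl/6 background and carried the same tumor line, and the labels give no age. Each mouse was marked by its own hashtag antibody, 4 in a genotype, and a genotype was run in a single 10X channel, so that genotype and channel cannot be told apart. The hashtags return the mice as replicates. Each level below is the mean ± SD over mice of CPM, the number of unique molecular identifiers (UMIs) of a gene in counts per 1e6 UMIs of the cell class in that mouse.

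An integrin reaches the cell surface as a pair of an alpha and a beta chain, and the pair decides what it binds. LFA-1 (Itgal with Itgb2) binds ICAM-1, VLA-4 (Itga4 with Itgb1) binds VCAM-1 and fibronectin, and Itga4 with Itgb7 binds MAdCAM-1 and VCAM-1. Itgae with Itgb7 binds E-cadherin, Itga1 with Itgb1 binds collagen, and Itga6 with Itgb1 binds laminin. Vcam1 and Icam1 are best known as products of inflamed endothelium, where rolling leukocytes arrest, although macrophages and dendritic cells can make them as well.

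Of the 10853 cells kept, with 1035 to 1671 per mouse and a median of 10027 to 14009 UMIs per cell, 9276 were assigned to 1 of 12 immune classes by UMIs of marker genes, none of which is a gene described here. The classes were CD8 T cells, CD4 T cells, Tregs, NK cells, B cells, cDC1, cDC2, mature dendritic cells (DCs), classical monocytes, non-classical monocytes, TAMs and microglia. They ranged from 78 cells for cDC1 to 2811 for TAMs, and a mouse with fewer than 5 cells of a class was left out of it. Non-classical monocytes also held classical monocyte markers, at 4017 to 18415 CPM in WT and 2842 to 3642 CPM in KO mice. Their own markers were at 1248 to 2902 and 1674 to 2902 CPM, and WT mouse 1 had 8 such cells. The part of the classical markers in the levels of this class was not tested. Camkk2 stood at 28.0 to 37.9 CPM in all cells of the WT mice and at 13.4 to 22.5 CPM in those of the KO mice, without overlap, and the remaining 3′ tags do not show whether a functional transcript was made. No class was endothelial, so Vcam1 and Icam1 are described in leukocytes only. Of the 5 endothelial markers Tek had no UMI in any of the 12 classes, and in TAMs the 5 together reached 4.33 to 23.2 CPM in WT and 5.18 to 23.4 CPM in KO mice. In non-classical monocytes they were at 71.4 to 100.1 CPM in WT and 42.5 to 63.7 CPM in KO mice, where Cdh5, Egfl7 and Tek were at 0, and in classical monocytes at 23.2 to 64.4 and 16.0 to 46.9 CPM. The 2 libraries shared 42 barcode sequences.

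**Figure D1:**
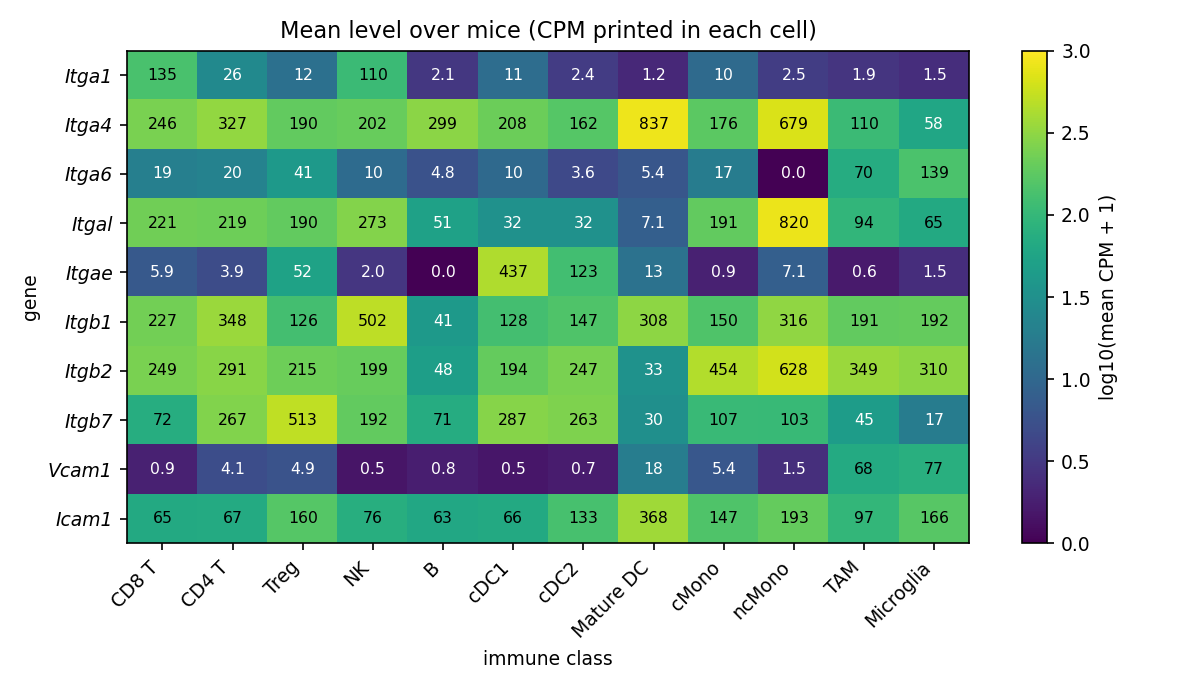
Mean level of each gene (rows) in each immune class (columns), averaged over the mice of both genotypes with at least 5 cells in the class. The number in a cell is the mean CPM. Itga1 stands out in CD8 T and NK cells, Itgae in cDC1, Itga6 in microglia, Vcam1 in microglia and TAMs, and Itga4 in mature DCs and non-classical monocytes.

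Itga1, Itgae and Itga6 led in different immune classes and were low in most others, while Itga4, Itgb1 and Itgb2 were spread widely. Levels of a gene are compared between classes, and levels of different genes are not compared with each other. Classes next to each other in the order of a gene's mean level were compared within mice by a two-sided exact permutation test of the difference in log2(CPM + 1). Of 110 neighbor pairs none had an adjusted p below 0.05, the lowest being 0.156, so the order of neighbors is not settled after adjustment. The smallest p the test can give is 0.0078 with 8 mice and 0.0156 with 7 mice, and the p-values given below for the pairs described are unadjusted.

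Itga1, the alpha chain of the collagen receptor VLA-1, was at 135 ± 52.1 CPM in CD8 T cells and 110 ± 43.5 CPM in NK cells (n = 8 each). CD8 T cells were the higher of these classes in 4 of 8 mice, so their order did not hold. CD4 T cells followed at 25.7 ± 21.7 CPM (n = 7), below NK cells in 7 of 7 mice (exact permutation p = 0.0156). TAMs and microglia had 1.93 and 1.47 CPM. The gene (chromosome 13, 114953096 to 115101964, minus strand, GRCm38) shares its strand with Pelo and Gm49395, and tags in the shared stretch cannot be assigned with certainty.

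Itga4, the alpha chain shared by VLA-4 and the gut-homing receptor, was found in all classes. It was at 837 ± 155 CPM in mature DCs (n = 7) and 679 ± 259 CPM in non-classical monocytes (n = 8). Non-classical monocytes exceeded CD4 T cells, the next class at 327 ± 75.7 CPM, in 7 of 7 mice (exact permutation p = 0.0156). The lowest means were 110 ± 23.1 CPM in TAMs and 58.5 ± 16.5 CPM in microglia, with TAMs higher in 8 of 8 mice (exact permutation p = 0.0078).

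Itgb7, the beta chain that joins Itga4 or Itgae, was highest in Tregs at 513 ± 106 CPM (n = 8). It was at 287 ± 54.9 CPM in cDC1 (n = 7), 267 ± 85.5 CPM in CD4 T cells (n = 7) and 263 ± 61.1 CPM in cDC2 (n = 8), which did not differ beyond their spread. A cDC1 gate without the limit on C1q gave lower Itgb7 in cDC1, 255 ± 98.0 CPM in WT and 136 ± 40.0 CPM in KO mice. Microglia had 17.4 ± 18.0 CPM. Since Itga4 and Itgb7 encode both chains of a single receptor and differed in the classes that led, the 250 bases before each gene's start are shown from RefSeq (GRCm38.p6), 5′ to 3′ on the strand of the gene, with searched motifs in capitals.
Itga4, chr2:79255176-79255425, plus strand: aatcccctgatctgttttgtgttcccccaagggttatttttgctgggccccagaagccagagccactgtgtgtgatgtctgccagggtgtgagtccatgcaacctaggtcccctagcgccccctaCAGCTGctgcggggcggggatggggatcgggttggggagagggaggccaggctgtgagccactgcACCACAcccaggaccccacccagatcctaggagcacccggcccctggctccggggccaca
Itgb7, chr15:102231936-102232185, minus strand: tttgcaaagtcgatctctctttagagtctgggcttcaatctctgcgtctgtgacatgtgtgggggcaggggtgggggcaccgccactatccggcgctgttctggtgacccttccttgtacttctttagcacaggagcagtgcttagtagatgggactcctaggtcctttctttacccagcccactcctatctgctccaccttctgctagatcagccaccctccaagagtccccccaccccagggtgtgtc
The table held promoters for 5 of the 10 genes. Letters of 3 motifs were sought on both strands, TGTGGT for RUNX factors, GAGGAA for PU.1 and CAGCTG for E-box proteins. Of 32851 promoter windows of this length 14.0% held the first, 23.3% the second and 13% the third. The Itga4 window held the E-box letters 125 to 120 bases before the start and the RUNX letters, on the opposite strand, 60 to 55 bases before it. None of the 3 was in the Itgb7 window, which says nothing beyond these letters in this window.

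Itgae, also known as CD103, had its highest means in cDC1 and cDC2. It was at 437 ± 95.9 CPM in cDC1 (n = 7), 123 ± 61.1 CPM in cDC2 (n = 8) and 52.2 ± 37.6 CPM in Tregs (n = 8). Mature DCs had a lower mean than Tregs, 12.6 ± 16.0 CPM (n = 7). In the 4 mice with at least 10 cells of both classes cDC1 exceeded cDC2 in 4, where the smallest possible p was 0.125 (exact permutation test). CD8 T cells, with Itga1 at the level given above, held only 43 UMIs of Itgae, or 5.87 ± 4.66 CPM. No UMI was counted in 355 B cells, whose 1796260 UMIs allow up to 1.67 CPM at 3 counts over the class.

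Itgal, the alpha chain of LFA-1, was at 820 ± 157 CPM in non-classical monocytes (n = 8), the cells that patrol the vessel wall. NK cells had 273 ± 65.3 CPM, below non-classical monocytes in 7 of 7 mice (exact permutation p = 0.0156) and above CD8 T cells at 221 ± 41.8 CPM in 8 of 8 mice (exact permutation p = 0.0078). TAMs at 94.5 ± 32.5 CPM were above microglia at 65.5 ± 26.9 CPM in 8 of 8 mice (exact permutation p = 0.0078), and mature DCs had 7.10 ± 10.2 CPM. Its partner Itgb2 led in the same class, at 628 ± 126 CPM. Classical monocytes followed with 454 ± 47.1 CPM, lower in 7 of 7 mice (exact permutation p = 0.0156). B cells and mature DCs had the least Itgb2, with 47.6 ± 24.4 and 32.7 ± 17.7 CPM.

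Itga6, the laminin receptor chain, was at 139 ± 88.5 CPM in microglia and 70.5 ± 56.7 CPM in TAMs, with microglia higher in 8 of 8 mice (exact permutation p = 0.0078). These means and SDs span both genotypes, which differed as described below, and in KO mice alone TAMs were at 23.3 ± 15.0 CPM beside 39.3 ± 31.6 CPM in Tregs. In 255 non-classical monocytes no UMI of Itga6 was counted among 2399223, which allows up to 1.25 CPM. Itgb1, the beta chain common to VLA-1, VLA-4 and the laminin receptor, was at 502 ± 42.3 CPM in NK cells and 40.7 ± 22.9 CPM in B cells. TAMs and microglia had similar Itgb1 levels, 191 ± 14.8 and 192 ± 18.8 CPM, with microglia higher in 4 of 8 mice (exact permutation p = 0.766).

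Of the ligands, Vcam1 was mainly a macrophage gene among the sorted cells, while Icam1 was found in every class. Vcam1 was at 77.2 ± 43.9 CPM in microglia and 68.0 ± 59.7 CPM in TAMs, an order seen in 5 of 8 mice (exact permutation p = 0.148), and at 17.9 ± 17.5 CPM in mature DCs. The order of the means turned with genotype, with 95.4 ± 52.7 CPM in microglia and 107 ± 61.1 CPM in TAMs of WT mice against 58.9 ± 28.8 and 28.7 ± 22.0 CPM in KO mice. In the other 9 classes its mean was at or below 5.44 CPM, and in NK cells it was 0.498 CPM. Icam1 was at 368 ± 105 CPM in mature DCs (n = 7), 193 ± 79.4 CPM in non-classical monocytes and 166 ± 35.2 CPM in microglia (n = 8 each). Its lowest mean was 62.8 ± 38.2 CPM, in B cells.

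WT and CaMKK2 KO mice were then compared in each class with the quasi-likelihood test of edgeR, with p adjusted over all genes that had at least 200 UMIs in the class. Of the 120 combinations of gene and class 68 passed that filter and 52 were too sparse to test. Among the 68, 3 were higher and 2 were lower in KO mice, beside 854 of 47600 tests of any gene, or 1.79%. The calls were Itga6 in TAMs and in microglia, lower in KO mice, and Itgb7 in TAMs and Itgal and Itgb2 in NK cells, higher in KO mice. Leaving out single mice moved this count to between 1, without WT mouse 4, and 10, without KO mouse 3, and DESeq2 gave 9.

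**Figure D2:**
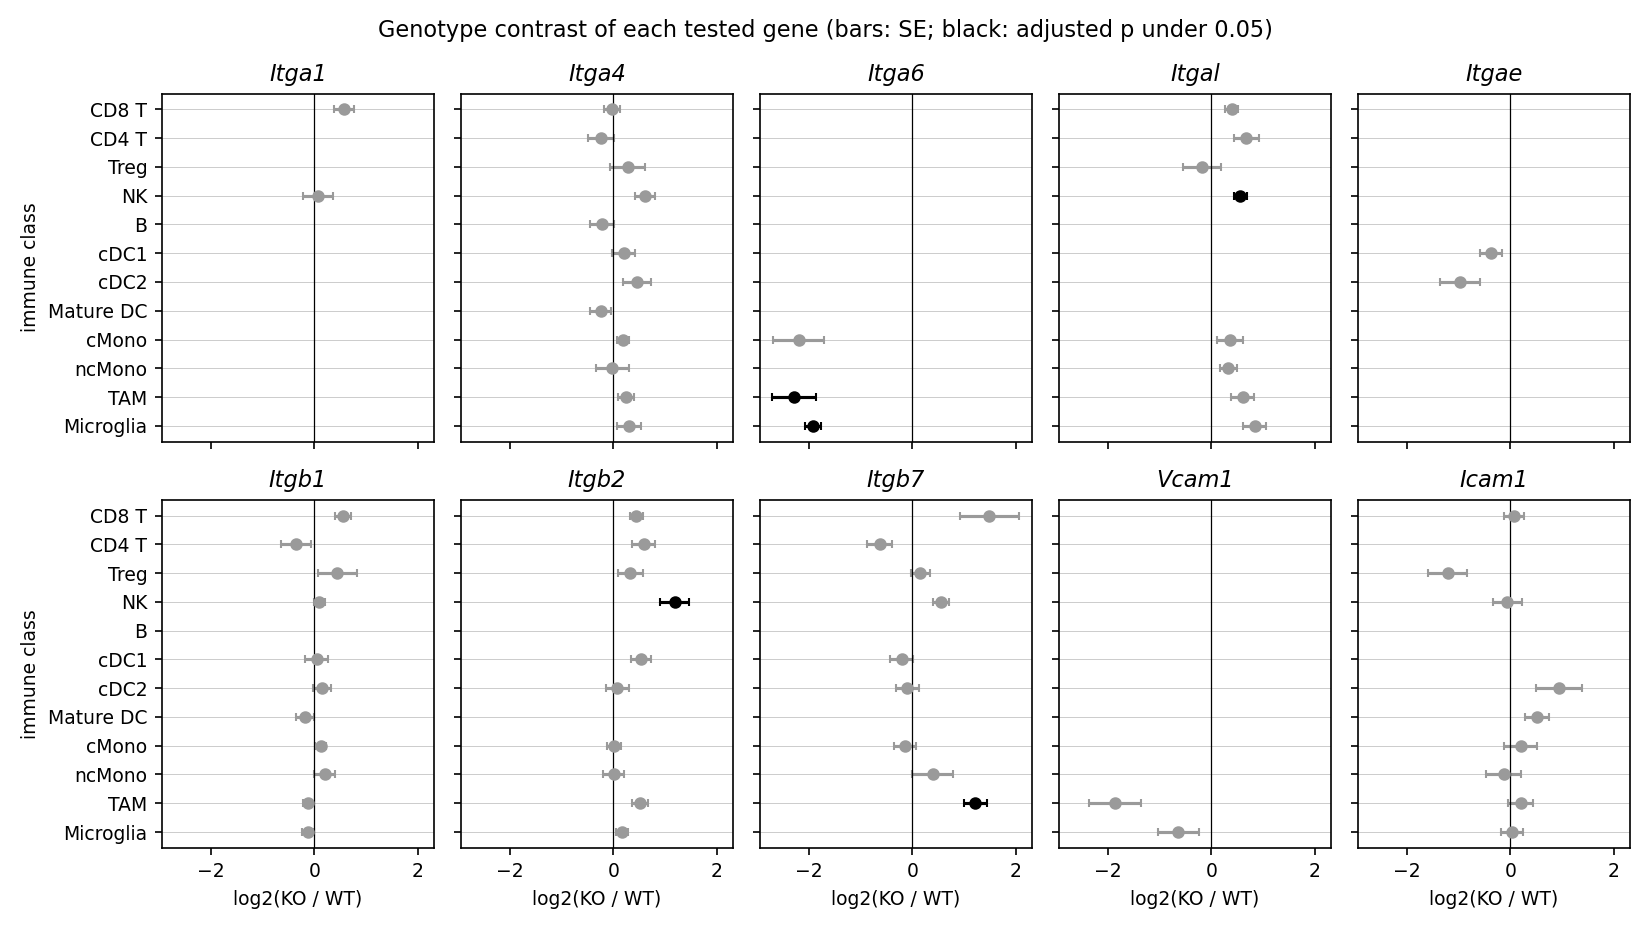
Log2 ratio of CaMKK2 KO to WT mice (x axis) for each gene in each class where it had at least 200 UMIs, with bars for the standard error. The 5 combinations with an edgeR adjusted p below 0.05 are marked, and Itga6 lies left of 0 in all 3 classes in which it was tested.

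In microglia, Itga6 was 3.76-fold lower in CaMKK2 KO mice. The 4 WT mice had 185, 219, 221 and 254 CPM and the 4 KO mice had 43.6, 54.9, 64.2 and 71.1 CPM, so every KO mouse was below every WT mouse, which held for 9.23% of all genes in microglia. The means were 220 ± 27.9 and 58.4 ± 11.9 CPM, a log2 fold change of −1.92 with a standard error of 0.16 (edgeR adjusted p = 9.75e-05). It was the single call among 7 genes of the set tested in microglia, where 1.1% of all genes were called. After each cell was thinned to 4000 UMIs, 57.1 ± 6.23% of WT and 20.3 ± 4.45% of KO microglia had an Itga6 UMI (n = 4 each), against 85.6 ± 5.93% and 47.0 ± 5.76% without thinning. In NK cells thinned to the same depth the shares were 4.62 ± 2.14% and 3.27 ± 2.45%.

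The call in microglia held under all 15 alternatives, with log2 fold changes of −2.01 to −1.80. The 6 microglia markers of the gate summed to 1633 to 2949 CPM in WT and 1787 to 4374 CPM in KO mice. The 5 classical monocyte markers in the same cells were at 169 to 713 CPM in WT and 483 to 1300 CPM in KO mice, and their part in the result was not tested. The median log2 change of all genes in microglia was −0.12, and −0.003 with TMM scaling, which gave 55 higher and 29 lower genes in place of 39 and 41 and a log2 fold change of −1.80 for Itga6.

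**Figure D3:**
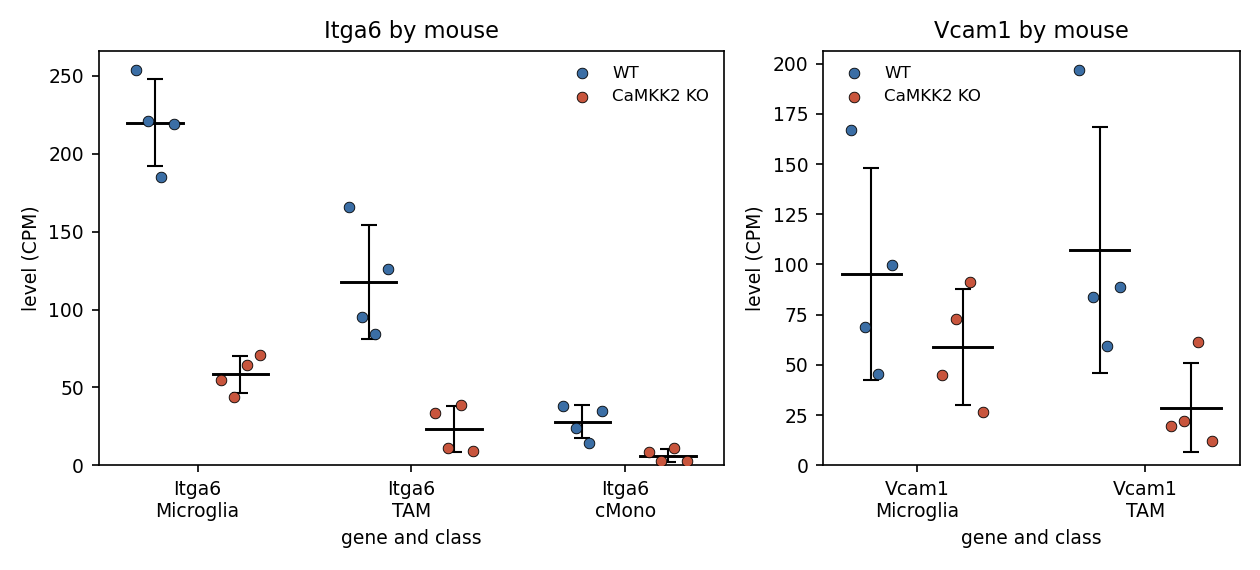
Level in CPM (y axis, from 0) of Itga6 in microglia, TAMs and classical monocytes and of Vcam1 in microglia and TAMs, with 1 point per mouse, a line at the mean and bars for the SD (n = 4 mice per genotype). For Itga6 all KO mice are below all WT mice in the 3 classes, while the Vcam1 points of the genotypes overlap.

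TAMs, gated on macrophage markers and C1q with at most 2 microglia markers detected, showed the same direction, with Itga6 5.06-fold lower in KO mice. It was at 84.3, 95.0, 126 and 166 CPM in the WT mice and at 9.52, 11.3, 33.3 and 38.9 CPM in the KO mice, again with no overlap, as for 9.35% of all genes. The means of 118 ± 36.6 and 23.3 ± 15.0 CPM gave a log2 fold change of −2.29 with a standard error of 0.42 (edgeR adjusted p = 0.0241). Of the 8 genes of the set tested in TAMs, 1 was higher and 1 lower in KO mice, where 1.0% of all genes were higher and 1.38% lower. With TMM scaling 107 genes were higher and 76 lower in place of 92 and 127, and both calls of the set held.

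Microglia markers summed to 162 to 259 CPM in the TAMs of WT mice and 81.1 to 183 CPM in those of KO mice. Classical monocyte markers in TAMs were at 829 to 1728 CPM in WT and 1658 to 4382 CPM in KO mice, and their part in the Itga6 result was not tested. The 8 TAM markers themselves were at 17101 to 18097 CPM in WT and 13300 to 17254 CPM in KO mice. Their part in the results in this class was not tested. In the 338 WT and 471 KO TAMs without a UMI of any microglia marker, Itga6 was at 69.8 ± 26.4 CPM in WT and 17.8 ± 11.5 CPM in KO mice, a log2 fold change of −2.01 (edgeR adjusted p = 0.0393). Leaving out WT mouse 2, WT mouse 4 or KO mouse 2 took the edgeR adjusted p of Itga6 in TAMs to 0.0519, 0.0715 and 0.0522, with log2 fold changes of −2.38, −2.26 and −2.06.

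In classical monocytes Itga6 was sparse, with 238 UMIs in all, and missed the threshold. The WT mice had 14.6, 24.2, 34.6 and 38.0 CPM and the KO mice 2.55, 2.73, 8.59 and 11.1 CPM, which did not overlap, beside 6.0% of all genes lower without overlap. The log2 fold change was −2.20 with a standard error of 0.49 (edgeR adjusted p = 0.0544). The 5 markers of the class itself were at 9358 to 17036 CPM in the classical monocytes of WT mice and at 6667 to 8827 CPM in those of KO mice, also without overlap, and their part in the results in this class was not tested. Of 7 genes of the set tested in classical monocytes 0 passed, where 1.92% of all genes did and 1200 of 7046 had an unadjusted p below 0.05. Genotype effects on Itga6 in TAMs and classical monocytes differed by −0.21 with a standard error of 0.22 (edgeR interaction, adjusted p = 0.797).

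Itgb7 moved the other way in TAMs. It was at 22.4, 23.2, 30.2 and 32.8 CPM in the WT mice and at 45.6, 50.5, 65.9 and 90.0 CPM in the KO mice, which did not overlap. The means were 27.1 ± 5.14 and 63.0 ± 20.0 CPM, a log2 fold change of 1.21 with a standard error of 0.22 (edgeR adjusted p = 0.0251). In classical monocytes Itgb7 was at 113 ± 31.2 CPM in WT and 102 ± 14.6 CPM in KO mice, a log2 fold change of −0.14 with a standard error of 0.21 (edgeR adjusted p = 0.797).

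The Itgb7 call was lost in the 338 WT and 471 KO TAMs with no UMI of a microglia marker. Whether the gate or the smaller number of cells made the difference was not tested. In these cells Itgb7 was at 47.6 ± 9.08 CPM in WT and 74.3 ± 18.3 CPM in KO mice, and the log2 fold change of 0.66 did not pass (edgeR adjusted p = 0.180). In all TAMs the 5 classical monocyte markers were at 829 to 1728 CPM in WT mice and at 1658 to 4382 CPM in KO mice, and their part in the result was not tested. Leaving out WT mouse 1, 3 or 4 or KO mouse 4 gave log2 fold changes of 1.15, 1.27, 1.13 and 1.19 with an edgeR adjusted p of 0.0579, 0.0616, 0.0843 and 0.0676.

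The genotype effect on Itgb7 was higher by 1.28 in TAMs than in classical monocytes, with a standard error of 0.20 (edgeR interaction, adjusted p = 0.0231). It was the 1 of 7 genes of the set that passed this test, where 0.671% of all genes did, and the call was lost without WT mouse 2 or 3 or KO mouse 2 or 4, with an adjusted p of up to 0.0909. Itgb2 differed by 0.46 with a standard error of 0.14 and missed the threshold (edgeR interaction, adjusted p = 0.150). In TAMs Itgb2 was at 288 ± 34.1 CPM in WT and 410 ± 85.1 CPM in KO mice (edgeR adjusted p = 0.105). The genotypes did not overlap but nearly touched, with 324.955 CPM in the highest WT mouse and 325.027 CPM in the lowest KO mouse. In microglia Itgal was at 47.1 ± 8.59 against 83.9 ± 26.6 CPM, also without overlap (edgeR adjusted p = 0.0958). Not overlapping and higher in KO mice were 4.39% of all genes in TAMs and 2.69% in microglia. Markers of classical monocytes were at 829 to 1728 CPM in WT and 1658 to 4382 CPM in KO TAMs. In microglia they were at 169 to 713 and 483 to 1300 CPM. Their part in the Itgb2 and Itgal differences was not tested.

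Vcam1, the ligand of VLA-4, had lower means in KO macrophages but did not pass. In TAMs the WT mice had 59.5, 83.9, 88.6 and 197 CPM and the KO mice 12.3, 19.5, 21.8 and 61.2 CPM, and the highest KO mouse lay within the WT range. The log2 fold change was −1.86 with a standard error of 0.50 (edgeR adjusted p = 0.0812), and in microglia it was −0.64 with a standard error of 0.39 (edgeR adjusted p = 0.430). TAMs with no UMI of a microglia marker had Vcam1 at 61.8 ± 34.5 CPM in WT and 21.8 ± 15.3 CPM in KO mice. There the log2 fold change of Vcam1 was −1.59 (edgeR adjusted p = 0.210). The chains of its receptor, Itga4 and Itgb1, had log2 fold changes of 0.25 ± 0.16 and −0.13 ± 0.09 (SE) in TAMs. Icam1 passed in none of the 9 classes in which it was tested with edgeR. It was at 89.9 ± 26.2 against 104 ± 30.8 CPM in TAMs and at 163 ± 41.9 against 169 ± 33.4 CPM in microglia. The means lay further apart in Tregs, at 214 ± 116 against 105 ± 34.9 CPM (log2 fold change −1.22, SE 0.38, edgeR adjusted p = 0.198), and, in the other direction, in cDC2, at 87.2 ± 43.5 against 179 ± 97.5 CPM (log2 fold change 0.94, SE 0.44, edgeR adjusted p = 0.362). The genotypes overlapped in both classes, and TAM markers in Tregs were at 242 to 334 CPM in WT and 134 to 203 CPM in KO mice.

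In NK cells both chains of LFA-1 were higher in CaMKK2 KO mice. Itgal was at 187, 200, 242 and 256 CPM in the WT mice and at 279, 320, 327 and 376 CPM in the KO mice, without overlap, as for 8.1% of all genes. The means of 221 ± 33.0 and 326 ± 39.5 CPM gave a log2 fold change of 0.56 with a standard error of 0.13 (edgeR adjusted p = 0.0267). Itgb2 was at 94.7, 106, 138 and 145 CPM in the WT mice and at 118, 278, 319 and 397 CPM in the KO mice. KO mouse 3, at 118 CPM, lay inside the WT range, and the other KO mice were above it. The means of 121 ± 24.5 and 278 ± 117 CPM gave a log2 fold change of 1.18 with a standard error of 0.28 (edgeR adjusted p = 0.0287).

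Of 7 genes of the set tested in NK cells 2 were higher and 0 lower in KO mice, where 2.77% of all genes were higher and 1.16% lower. With TMM scaling 100 genes were higher and 85 lower in place of 172 and 72, and both LFA-1 chains still passed. Leaving out WT mouse 1, 2 or 4 or KO mouse 1, 2 or 4 took Itgal to an edgeR adjusted p of 0.0531 to 0.0965 and Itgb2 to one of 0.0584 to 0.123, with log2 fold changes of 0.48 to 0.61 and 0.93 to 1.29. Without KO mouse 3 the log2 fold changes were 0.63 and 1.46, with an edgeR adjusted p of 0.00512 and 7.3e-05. DESeq2 gave an adjusted p of 0.0504 for Itgb2.

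**Figure D4:**
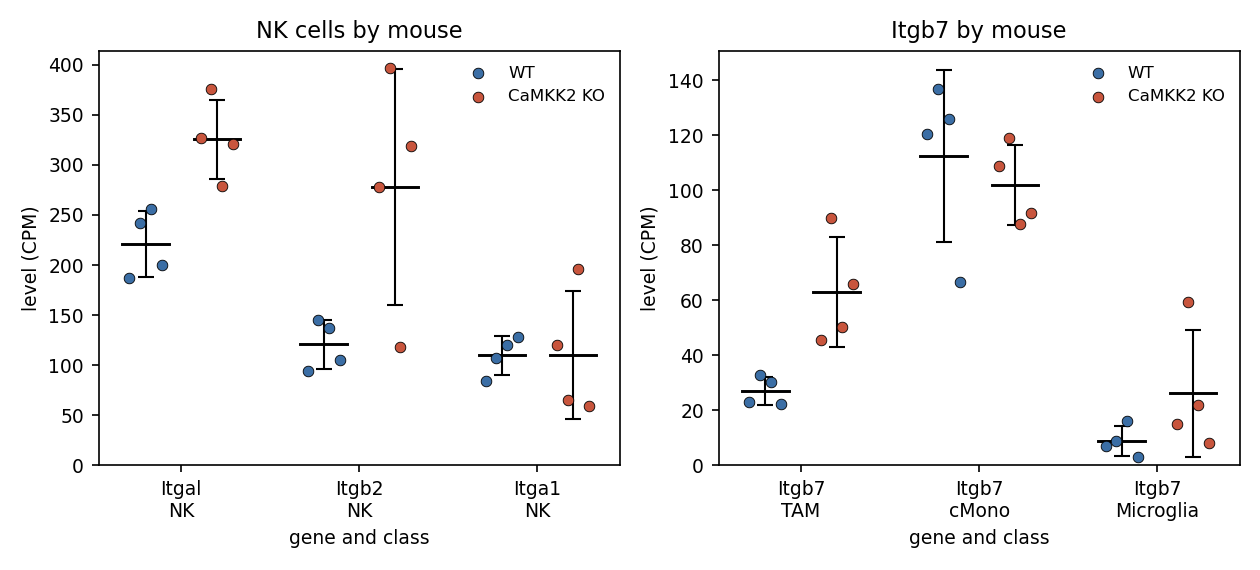
Level in CPM (y axis, from 0) of Itgal, Itgb2 and Itga1 in NK cells and of Itgb7 in TAMs, classical monocytes and microglia, with 1 point per mouse, a line at the mean and bars for the SD (n = 4 mice per genotype). KO mouse 3 is the low Itgb2 point at 118 CPM and the high Itga1 point at 196 CPM.

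KO mouse 3 also had the highest Itga1 level in NK cells, 196 CPM, against 59.4, 65.3 and 120 CPM in the other KO mice and 84.2 to 129 CPM in the WT mice. Itga1 did not separate the genotypes in NK cells, with 110 ± 19.3 and 110 ± 63.5 CPM (edgeR adjusted p = 0.919). Itga4 had a log2 fold change of 0.61 ± 0.20 (SE, edgeR adjusted p = 0.0999), Itgb7 of 0.56 ± 0.16 (SE, edgeR adjusted p = 0.0632) and Itgb1 of 0.10 ± 0.10 (SE, edgeR adjusted p = 0.625). The 5 NK markers of the gate were at 1506 to 2219 CPM in WT and 2082 to 2889 CPM in KO mice. Classical monocyte markers in NK cells were at 328 to 516 CPM in WT and 571 to 795 CPM in KO mice, against at least 6667 CPM in classical monocytes, and their part in the LFA-1 result was not tested.

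In CD8 T cells 0 of 7 genes passed with edgeR, where 1.14% of all genes did and 814 of 5188 had an unadjusted p below 0.05. Itgal, Itgb2 and Itgb1 were higher in every KO mouse than in any WT mouse, which is 3 of 7 genes beside 7.29% of all genes. Itgal was at 189 ± 27.1 against 252 ± 26.1 CPM (edgeR adjusted p = 0.147), Itgb2 at 209 ± 19.0 against 289 ± 29.7 CPM (edgeR adjusted p = 0.0845) and Itgb1 at 184 ± 33.5 against 270 ± 30.3 CPM (edgeR adjusted p = 0.0749). Itga1 was at 99.9 ± 46.3 against 170 ± 30.3 CPM (edgeR adjusted p = 0.153), and Itga4 at 242 ± 65.1 against 249 ± 24.6 CPM. The genotypes overlapped for Itga1, and its lowest WT level, 32.3 CPM, came from mouse 1 with 17 CD8 T cells. Markers of other cells also separated the genotypes in CD8 T cells. The 5 NK markers were at 207 to 310 CPM in WT and 324 to 438 CPM in KO mice, the 5 non-classical monocyte markers at 6.89 to 13.9 and 22.5 to 45.7 CPM, with Ear2 and Treml4 at 0, and the 8 TAM markers at 157 to 175 and 102 to 122 CPM. Classical monocyte markers overlapped, at 387 to 1054 CPM in WT and 689 to 1995 CPM in KO mice, and the part of these markers in the 3 differences was not tested. None of the 7 genes passed the test of a difference in genotype effect between CD8 T and NK cells (edgeR interaction), where 0.0596% of all genes did. The lowest adjusted p was 0.213, for Itgb1.

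Itgb7 in CD8 T cells varied widely between KO mice, with 31.6, 33.8, 124 and 214 CPM, against 20.8, 23.8, 34.8 and 97.0 CPM in the WT mice (edgeR adjusted p = 0.221). The KO mice at 124 and 214 CPM contributed 40 and 44 CD8 T cells, fewer than the 126 and 130 of the other KO mice, and the WT mouse at 97.0 CPM contributed 17.

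Other lymphocytes gave no call. In CD4 T cells (3 WT and 4 KO mice) 0 of 5 genes passed, where 1.43% of all genes did. Itgal and Itgb2 were higher and Itgb7 lower in every KO mouse than in any WT mouse, which is 3 of 5 genes beside 18.8% of all genes without overlap in either direction. Itgal was at 163 ± 53.8 against 261 ± 10.4 CPM, Itgb2 at 226 ± 69.1 against 340 ± 22.1 CPM and Itgb7 at 334 ± 87.0 against 217 ± 42.1 CPM. For Itgb7 the genotypes were apart by a narrow margin. The lowest WT mouse had 262.0 CPM of Itgb7 and the highest KO mouse 260.6 CPM. The WT mice held 12, 14 and 15 CD4 T cells with 64892 to 77879 UMIs, and the KO mice 37 to 97 cells with 276337 to 1056184 UMIs. T cell markers in these cells were at 3480 to 4197 CPM in WT and 4624 to 5161 CPM in KO mice, TAM markers at 231 to 475 and 97.5 to 175 CPM, and NK markers at 15.4 to 25.7 and 33.7 to 91.8 CPM, all without overlap, and their part in the differences was not tested. In Tregs 0 of 6 genes passed, where 1.02% of all genes did, and Itgb7 was at 477 ± 99.4 against 549 ± 114 CPM. In B cells Itga4, the 1 gene with enough UMIs, did not pass, where 0.178% of all genes did.

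In DCs and non-classical monocytes no gene of the set passed. In cDC2 the WT mice had 148, 163, 166 and 187 CPM of Itgae and the KO mice 21.4, 36.6, 129 and 132 CPM, without overlap. The means of 166 ± 16.2 and 79.8 ± 58.9 CPM gave a log2 fold change of −0.97 with a standard error of 0.39 (edgeR adjusted p = 0.301). It was 1 of 6 genes lower without overlap in cDC2, beside 3.88% of all genes, and 0 of 6 passed, where 0.721% of all genes did. The WT mice held 44 to 67 cDC2 and the KO mice 13 to 40. Markers of classical monocytes in cDC2 were at 137 to 851 CPM in WT and 505 to 2320 CPM in KO mice, and their part was not tested. In cDC1 Itgae was at 487 ± 79.3 CPM in 4 WT mice and 372 ± 82.5 CPM in 3 KO mice, the fourth having 2 such cells (log2 fold change −0.38, edgeR adjusted p = 0.537). A cDC1 gate without the limit on C1q gave 402 ± 121 against 191 ± 90.8 CPM and a log2 fold change of −1.08 (edgeR adjusted p = 0.268).

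Itgb2 in cDC1 was at 163 ± 23.6 CPM in WT and 236 ± 14.2 CPM in KO mice, without overlap (edgeR adjusted p = 0.306), which is 1 of 5 genes beside 7.66% of all genes. Classical monocyte markers in cDC1 were at 165 to 352 CPM in WT and 394 to 727 CPM in KO mice, also without overlap, and their part was not tested. The KO mice 1, 2 and 3 held 6, 8 and 7 cDC1, and the WT mice 11 to 21. Of the 5 genes tested in cDC1 0 passed, where 1.79% of all genes did. In mature DCs it was 0 of 3 beside 0.953%, and in non-classical monocytes 0 of 6 beside 0.624%. Itga4 was at 922 ± 150 against 774 ± 143 CPM in mature DCs (3 WT and 4 KO mice) and at 679 ± 201 against 679 ± 340 CPM in non-classical monocytes.

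Detection of both chains of a receptor in the same cell was compared after thinning to 4000 UMIs, since detection rises with depth. The share with both chains cannot exceed the share with either, so these comparisons are not independent of those of single genes. A share expected from the single chains was not calculated. In 36 tests of a pair in a class with 4 mice per genotype, 6 reached the smallest p that 4 against 4 mice allow, 0.0286 (two-sided exact permutation test), and 0 had an adjusted p below 0.05, all 6 standing at 0.171.

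**Figure D5:**
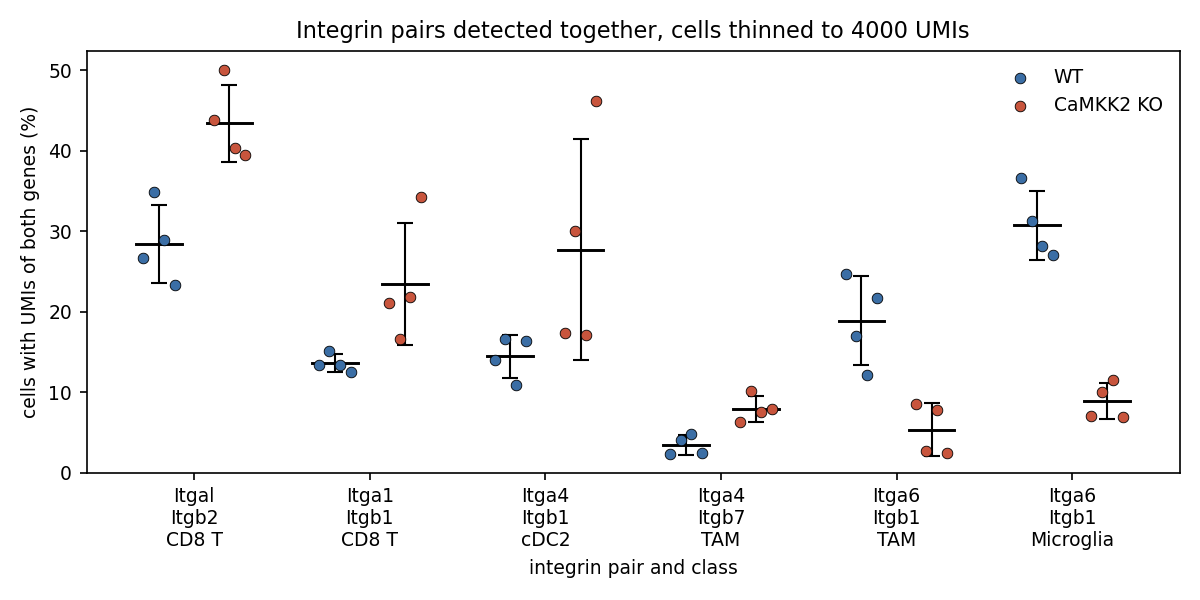
Percentage of cells with UMIs of both chains (y axis, from 0) for the 6 combinations of integrin pair and class in which the genotypes did not overlap, with 1 point per mouse, a line at the mean and bars for the SD. Itga6 with Itgb1 is lower in the KO mice in both of its classes and the other pairs are higher.

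In NK cells, where both LFA-1 chains were called, their joint detection overlapped between the genotypes. It was at 25.7, 25.9, 34.0 and 39.7% in the WT mice and at 24.4, 43.6, 49.3 and 54.2% in the KO mice, of which KO mouse 3 was the lowest of all 8 (exact permutation p = 0.171, adjusted p = 0.411; 59.2 and 67.7% on average without thinning).

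LFA-1 chains were found together in 28.4 ± 4.84% of WT and 43.4 ± 4.78% of KO CD8 T cells, and in 69.9 ± 9.30% and 85.0 ± 2.81% without thinning. Thinning kept 389 of 395 WT and 332 of 340 KO CD8 T cells. Itga1 with Itgb1 was found in 13.6 ± 1.13% of WT and 23.4 ± 7.53% of KO CD8 T cells (36.3 and 52.3% without thinning). By mouse this pair was at 12.5, 13.3, 13.4 and 15.2% in WT and 16.7, 21.1, 21.8 and 34.2% in KO mice, also a narrow margin. Its highest share came from 13 of 38 cells, in KO mouse 4, and WT mouse 1 held 15 cells. VLA-4 chains were detected together in 14.5 ± 2.68% of WT and 27.7 ± 13.7% of KO cDC2 (59.9 and 71.6% without thinning), with 219 of 220 WT and all 111 KO cells kept. By mouse these shares were 10.9, 14.0, 16.4 and 16.7% in WT and 17.1, 17.4, 30.0 and 46.2% in KO mice. The genotypes were thus apart by a narrow margin, and the highest share, in KO mouse 4, came from 6 of 13 cells.

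In TAMs, of which 1524 of 1554 WT and 1209 of 1257 KO cells were kept, Itga4 with Itgb7 was found in 3.43 ± 1.24% of WT and 7.96 ± 1.60% of KO cells (18.3 and 33.6% without thinning). Itga6 with Itgb1 was found in 18.9 ± 5.52% of WT and 5.38 ± 3.23% of KO TAMs (59.5 and 20.7% without thinning). In microglia, of which 622 of 642 WT and 262 of 268 KO cells were kept, the laminin receptor pair was at 30.7 ± 4.28% in WT and 8.87 ± 2.24% in KO mice (77.5 and 39.9% without thinning). LFA-1 chains were detected together in 80.8 ± 7.78% of WT (n = 3) and 83.4 ± 3.68% of KO (n = 4) non-classical monocytes.

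Other adhesion genes were counted over a list of 51 integrins, ligands and adaptors, which gave 225 tests over the classes. Of these 4 were higher and 10 lower in KO mice, beside 854 of 47600 tests of any gene, or 1.79%. The calls lay in NK cells, classical monocytes, TAMs and microglia, and the matrix proteins called in the myeloid classes were lower in KO mice. Thbs1, which encodes thrombospondin 1, was at 350 ± 120 against 62.5 ± 5.36 CPM in TAMs (log2 fold change −2.48, SE 0.23, edgeR adjusted p = 0.000573). It was also lower in classical monocytes (log2 fold change −3.52, SE 0.55) and microglia (log2 fold change −1.60, SE 0.27). Fn1, which encodes fibronectin, a ligand of VLA-4, had log2 fold changes of −1.97 in classical monocytes and −1.63 in microglia. Spp1, osteopontin, had a log2 fold change of −3.69 in microglia but was at 118 ± 17.8 against 321 ± 123 CPM in NK cells. Cd63, a tetraspanin that associates with integrins, had log2 fold changes of −1.64 in TAMs and −0.997 in microglia.

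Among other integrin chains, Itgav was at 78.2 ± 8.66 against 44.0 ± 3.40 CPM in TAMs (edgeR adjusted p = 0.00339). Itgb5, with which Itgav forms a vitronectin receptor, was at 201 ± 18.9 against 107 ± 18.9 CPM in classical monocytes (edgeR adjusted p = 0.0163). In NK cells Itgam, the alpha chain of Mac-1 and a further partner of Itgb2, was at 24.0 ± 10.2 against 83.3 ± 44.6 CPM (log2 fold change 1.78, SE 0.41, edgeR adjusted p = 0.0281). Rassf5 and Fyb, which act in the activation of LFA-1, had log2 fold changes of 0.48 and 0.36 in NK cells. Markers of classical monocytes in NK cells were at 328 to 516 CPM in WT and 571 to 795 CPM in KO mice. Their part in the NK results of Spp1, Itgam, Rassf5 and Fyb was not tested. In NK cells 4 of 25 list genes were higher, beside 2.77% of all genes, and the median log2 change of the list was 0.30 against 0.08 for all genes. In TAMs 3 of 31 were lower, beside 1.38%, with a median of −0.10 against −0.08. In microglia 4 of 26 were lower, beside 0.563%, and in classical monocytes 3 of 28, beside 0.88%.

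The genes whose levels over the 12 classes were most like those of a member were sought among 11075 genes by Pearson's r of log2(CPM + 10). Itga6 was most like Aga (r = 0.98) and Cebpzos (r = 0.94), and Itga1 was most like Crtam (r = 0.97) and Gm20069 (r = 0.96). Vcam1 was most like Cttn (r = 0.97) and Septin8 (r = 0.95), and Itgb2 most like Myo1f (r = 0.94) and Tmed2 (r = 0.92). Itgae was most like Casp6 (r = 0.92) and Bloc1s2 (r = 0.91). Icam1 was most like Adap1 (r = 0.91) and Ggta1 (r = 0.90), Itga4 like Stk4 and Ddx17 (r = 0.88 each), Itgb7 like Hnrnpm (r = 0.89) and Hnrnpd (r = 0.88), and Itgb1 like Sppl3 (r = 0.90) and Prex1 (r = 0.83). These are descriptions over 12 classes from the same 8 mice and 2 libraries.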

How the data were processed

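The authors deposited UMI counts per gene and cell, which per the labels came from Cell Ranger 4.0.0 (STAR 2.7.5c, bcl2fastq 2.20) on mm10, and hashtag counts for the same barcodes. The WT library held 6689 barcodes and the KO library 7271. Hashtags were assigned with HTODemux of Seurat 5.3.0 (positive quantile 0.99), which removed 667 WT and 508 KO doublets and 48 and 67 negative barcodes. Cells with fewer than 200 genes, cells more than 3 median absolute deviations from the median in genes, UMIs or mitochondrial share (scuttle 1.12.0), and the highest Scrublet scores (70 WT and 84 KO cells, scanpy 1.11.5) were removed. The classes were rebuilt from marker genes and are not the study's own clusters.

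The members and gene lists were chosen with earlier results of these data known. Gate thresholds were set after marker levels were seen, and the limit on C1q in the cDC1 gate (below 0.1% of UMIs) was added after the members' levels had been seen, because macrophage markers were high in that class. Cells meeting several gates (100 WT and 174 KO) entered no class. Counts were added up within each mouse and class. Genes with at least 200 UMIs were tested with edgeR 4.0.16 (glmQLFit and glmQLFTest, two-sided, total UMIs of the class as library size) with Benjamini-Hochberg adjustment at 0.05. The standard error given for an edgeR log2 fold change is its absolute value over the square root of the quasi-likelihood F statistic. The edgeR step was tested on simulated counts. Named genes were all members, list genes past the threshold, the 2 genes most like each member, and Camkk2. Positions are from GENCODE M21 (GRCm38, the same assembly as mm10). Alternatives were TMM scaling, DESeq2 1.42.0, other count filters, outlying cells or doublets kept, stricter gates, other thinning depths and leaving out each mouse. TAMs without microglia markers and the cDC1 gate without the C1q limit were added after seeing the data. Limits from counts of 0 cover counting error only. The genes most like Itgal across classes are not reported here.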

Additional observations from a re-analysis of the deposited data

Results flagged for a closer look

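In groups of 4 mice, a mouse was singled out where its gap to the nearest other mouse was above Dixon's critical share of the group's range. Of 123 groups 7 met this, and chance gives about 1 in 20. In WT Tregs mouse 1 was highest for Itgal at 412 CPM (others 128 to 166) and for Itgb1 at 254 CPM (others 64.3 to 91.3). In KO Tregs mouse 4 was highest for Itga4 at 421 CPM (others 149 to 178). WT mouse 1 held 6 Tregs with 31529 UMIs and KO mouse 4 held 17 with 104588 UMIs, each the fewest of its group. In KO non-classical monocytes mouse 3 was highest for Itga4 at 1184 CPM (others 446 to 548), and in KO NK cells the same mouse was lowest for Itgb7 at 194 CPM (others 237 to 244). In WT CD8 T cells mouse 2 was lowest for Icam1 at 48.0 CPM (others 64.7 to 67.6), and in KO classical monocytes mouse 4 was lowest for Itgb1 at 142 CPM (others 160 to 163). KO mouse 3 had 14 non-classical monocytes, also the fewest of its group. The mice flagged in NK cells, CD8 T cells and classical monocytes did not hold the fewest cells of their groups.

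The genotype effect on Itgb7 differed between TAMs and classical monocytes by 1.28 on the log2 scale (edgeR interaction, adjusted p = 0.0231).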

How the results depend on the processing

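Itga6 in microglia passed under all 15 alternatives, Itga6 in TAMs under 13 of 16, Itgb7 in TAMs under 11 of 16, Itgal in NK cells under 9 of 15 and Itgb2 in NK cells under 8 of 15. Most losses came with a mouse left out, which also left fewer replicates. Calls were lost with all mice kept for Itgb2 in NK cells with DESeq2 and for Itgb7 in TAMs without microglia markers. The cause of a lost call was not tested. The 5 calls of the set became 9 with DESeq2, 15 with no filter on low counts and 1 to 10 when single mice were left out. Itgb7 in TAMs had a log2 fold change of 0.66 in TAMs without microglia markers, and Itgb2 in NK cells 1.09 with DESeq2. Without the C1q limit Itgae in cDC1 was at 312 CPM in place of 437 CPM. Itgb7 in cDC1 was then at 255 CPM in WT and 136 CPM in KO mice, in place of 305 and 264 CPM. Its log2 fold change was −0.92 (edgeR adjusted p = 0.291) in place of −0.21. Over all genes and classes, alternatives other than leaving out a mouse moved a level beyond the SD over mice in 16 comparisons and not in 344. Leaving out single mice gave log2 fold changes of −2.64 to −2.06 for Itga6 in TAMs, 0.99 to 1.35 for Itgb7 in TAMs, 0.48 to 0.63 for Itgal and 0.93 to 1.46 for Itgb2 in NK cells, and 1.16 to 1.46 for the difference in Itgb7 between TAMs and classical monocytes.

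Some uncalled genes changed sign, and not all of them were near 0 in the main fit. The main log2 fold change of Itga4 was 0.28 in Tregs, −0.22 in B cells and 0.20 in cDC1. That of Itgal in Tregs was −0.19. With DESeq2 the log2 fold change was 0.0049 for Itgb1 in microglia and −0.042 for Itga1 in NK cells. With doublets kept it was 0.13 for Itga4 in B cells. With outlying cells kept it was −0.12 for Itga4 and −0.14 for Itgb1 in cDC1, −0.16 for Icam1 in CD8 T cells, −0.080 for Icam1 in microglia and −0.014 for Itgb2 in non-classical monocytes. With the stricter gate it was 0.082 for Itgb7 and −0.31 for Itgb2 in cDC2, −0.17 for Icam1 in microglia and −0.029 for Itgb2 in non-classical monocytes, and without the C1q limit −0.21 for Itga4 in cDC1. Leaving out single mice spanned 0 for Icam1 in TAMs (−0.0055 to 0.36), classical monocytes (−0.018 to 0.45), CD8 T cells (−0.060 to 0.23), NK cells (−0.46 to 0.19), non-classical monocytes (−0.36 to 0.30) and microglia (−0.14 to 0.15), for Itga4 in Tregs (−0.066 to 0.53), CD8 T cells (−0.10 to 0.15) and non-classical monocytes (−0.40 to 0.17), for Itgb2 in cDC2 (−0.056 to 0.24), classical monocytes (−0.074 to 0.085) and non-classical monocytes (−0.12 to 0.24), for Itgb7 in cDC2 (−0.21 to 0.037), Itgal in Tregs (−0.44 to 0.014), Itga1 in NK cells (−0.40 to 0.28) and Itgb1 in cDC1 (−0.047 to 0.16), and for the difference between TAMs and classical monocytes in Itga4 (−0.089 to 0.098) and Icam1 (−0.17 to 0.041).

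The number of genes called was 59 in CD8 T cells, 25 in CD4 T cells, 17 in Tregs, 244 in NK cells, 2 in B cells, 21 in cDC1, 26 in cDC2, 14 in mature DCs, 135 in classical monocytes, 12 in non-classical monocytes, 219 in TAMs and 80 in microglia. With no filter on low counts these became, in the same order, 375, 130, 144, 750, 205, 102, 299, 152, 327, 135, 503 and 308. With single mice left out they were 19 to 97, 6 to 34, 5 to 22, 91 to 822, 0 to 73, 9 to 24, 14 to 155, 5 to 48, 38 to 171, 2 to 32, 90 to 433 and 32 to 92. DESeq2 called 103 in CD8 T cells, 52 in CD4 T cells, 52 in B cells, 72 in cDC2, 31 in mature DCs, 325 in classical monocytes, 21 in non-classical monocytes, 649 in TAMs and 175 in microglia. With at least 50 UMIs 109 were called in CD8 T cells, 38 in Tregs, 46 in B cells, 29 in mature DCs and 32 in non-classical monocytes. With outlying cells kept there were 39 in Tregs, 440 in NK cells and 1 in B cells, and with doublets kept 1 in B cells. The stricter gate gave 28 in B cells, 41 in cDC2 and 9 in mature DCs, TMM scaling 11 in B cells, and TAMs without microglia markers 100. With TMM scaling 25 genes were higher and 47 lower in CD8 T cells in place of 29 and 30. No other setting moved a class by over 1.5 times. The stricter gate left too few mice for cDC1. No paired analysis was possible because the labels give no number that ties a WT to a KO mouse. Depth limited the 52 combinations of gene and class with fewer than 200 UMIs.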

Other observations

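NK and CD8 T cells were also split by whether a cell had an Itga1 UMI after each cell was thinned to 4000 UMIs, so that all cells had the same depth, a comparison chosen after the levels had been seen. In NK cells Itga2, the gene of the NK integrin CD49b, was at 38.7 ± 27.5 CPM in cells with Itga1 and 94.2 ± 37.0 CPM in cells without, lower in 8 of 8 mice (two-sided exact permutation p = 0.0078, adjusted p = 0.172). Itga4 was at 164 ± 73.4 CPM with and 279 ± 87.5 CPM without Itga1, higher with Itga1 in 1 of 8 mice (exact permutation p = 0.0156, adjusted p = 0.172). Itgb2 was at 186 ± 71.0 CPM with and 267 ± 153 CPM without, higher with Itga1 in 1 of 8 mice (exact permutation p = 0.0391, adjusted p = 0.286). Itgb7 was at 257 ± 112 CPM with and 196 ± 43.4 CPM without (exact permutation p = 0.156). In CD8 T cells (7 mice) the lowest p was 0.281, for the NK marker Eomes (exact permutation test). None of the 22 tests had an adjusted p below 0.05.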
